A study of Mus musculus with 6 samples.

Results

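Keratin-associated proteins (KAPs) fill the space between the keratin filaments of the hair shaft and are cross-linked to them, which gives the hardened shaft its strength. Their genes, named Krtap, are switched on in the precortex, cortex and cuticle of the growing (anagen) follicle and are off in the resting (telogen) follicle, so in whole skin their transcripts mark follicles that are building a shaft. The family falls into cysteine-rich proteins, called high-sulphur or, at the highest cysteine content, ultra-high-sulphur, and glycine-tyrosine-rich proteins. The latter are short and in general hold less cysteine than the other KAPs.

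The set comprised every gene of the deposited expression table whose symbol begins with Krtap followed by a digit, 57 of 21959 genes in 27 numbered subfamilies. By subfamily number, 17 were ultra-high-sulphur (Krtap4, 5, 9 and 17), 25 were high-sulphur and 15 were glycine-tyrosine-rich (Krtap6, 7, 8, 19, 20, 21 and 22). RNA-seq was performed on poly-A RNA of dorsal skin from male C57BL/6 mice aged 7 weeks, which were wild type, were shaved in telogen and received a daily topical treatment there for 7 days. One group of 3 mice received vehicle, dipropylene glycol in water, and the other 3 mice received 3% rebamipide, a drug known for protecting the gastric mucosa, and each mouse gave 1 library. The libraries held 32709801 to 39915276 counted reads.

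One library went against its tissue label. The interfollicular epidermis list (9 genes of basal and suprabasal keratinocytes) summed to 2993, 8250 and 8995 CPM (read counts scaled to the library size after TMM normalisation) in vehicle libraries 1, 2 and 3, and to 2438, 1538 and 6.18 CPM in rebamipide libraries 1, 2 and 3. Rebamipide library 3 held 0 counts of Krt14 and 4 counts of Krt5, the defining basal keratins of skin, and the calls below are also given without it. Brown adipocyte markers (6 genes) summed to 197.6 to 348.7 CPM with vehicle and to 4532, 12150 and 9781 CPM with rebamipide. One of them, Elovl3, made up most of the vehicle sum and went the other way, with 176, 128.6 and 238.4 CPM against 82.3, 83.1 and 33.3 CPM (adjusted p = 0.0575, edgeR). By edgeR at an adjusted p under 0.05, 4 of 6 brown adipocyte and 5 of 6 adipocyte genes were higher, against 14.1% of all genes. The counts were 3 and 4 without rebamipide library 3, where edgeR called 1012 of 15327 genes higher. They were 0 and 0 without rebamipide library 2 or vehicle library 2, where edgeR called 1 and 0 of all genes higher. In the epidermis, proliferation, skeletal muscle, fibroblast and melanocyte lists 0 genes passed by edgeR, against 6.51% of all genes lower. Without rebamipide library 3, edgeR called 1 of 9 epidermis genes lower (2.49% of all genes) and DESeq2 called 5 (12.2% of all genes). Without rebamipide library 1, edgeR called 4 of 6 fibroblast and 1 of 6 proliferation genes lower (12.8% of all genes). Of the fibroblast and proliferation genes, DESeq2 called 2 and 3 lower on all libraries (17% of all genes). Fibroblast transcripts were also lower in rebamipide libraries 2 and 3, in which the Krtap genes were at about 0, than in the other libraries. The fibroblast list summed to 12000, 13730 and 17740 CPM with vehicle and to 15110, 3503 and 1850 CPM with rebamipide, and the skeletal muscle list, lowest in rebamipide library 3, to 4824, 20780 and 23930 CPM and to 30510, 6504 and 244 CPM. The part of these differences in tissue content in the Krtap values was not tested. In bulk skin, fewer follicles of a kind and less RNA per follicle cannot be told apart.

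The coding sequences show what separates the classes. In GENCODE M21 transcripts, cysteine codons made up a median of 37.7% of the codons of the ultra-high-sulphur members, 20.2% of the high-sulphur members and 8.0% of the glycine-tyrosine-rich members, against 2.1% over 21581 coding genes. Glycine and tyrosine codons together made up a median of 4.8%, 8.1% and 63.3% in the same 3 classes. The stretches below are 90 bases of coding exon, read 5′ to 3′ in frame on the minus strand of GRCm38, chosen as the 30 codons richest in the class codons. They come from the most abundant member (by mean FPKM) with at least 30% cysteine codons for the ultra-high-sulphur class, from the most abundant with at least 20% for the high-sulphur class, and from the most abundant glycine-tyrosine-rich member. Capitals mark cysteine codons in Krtap4-1 (chr11:99627799-99627888) and Krtap1-5 (chr11:99580603-99580692), and glycine or tyrosine codons in Krtap8-1 (chr16:89487770-89487859) and Krtap16-3 (chr16:88962617-88962706).
Krtap4-1: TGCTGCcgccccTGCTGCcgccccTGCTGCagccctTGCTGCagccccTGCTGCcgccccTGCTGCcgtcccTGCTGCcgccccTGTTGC
Krtap1-5: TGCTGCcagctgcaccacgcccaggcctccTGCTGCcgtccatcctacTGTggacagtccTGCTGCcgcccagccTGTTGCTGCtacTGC
Krtap8-1: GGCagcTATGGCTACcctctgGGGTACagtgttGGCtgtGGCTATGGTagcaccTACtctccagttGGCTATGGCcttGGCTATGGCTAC
Krtap16-3: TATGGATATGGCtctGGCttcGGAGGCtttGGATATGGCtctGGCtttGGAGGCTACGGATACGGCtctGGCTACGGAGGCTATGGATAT
The capitals cover 16 of 30 codons in Krtap4-1, where cysteine pairs recur every 4 codons or so, 11 in Krtap1-5, 18 in Krtap8-1 and 24 in Krtap16-3.

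The class by number and the codon content did not always go together. Cysteine codons ranged from 27.2% to 41.5% in ultra-high-sulphur members and from 0.0% to 16.7% in glycine-tyrosine-rich members. In high-sulphur members they ranged from 4.0% to 42.9%, which overlapped both other classes. Krtap16-3 is counted as high-sulphur by its number, but 59.3% of its codons encode glycine or tyrosine and 8.1% cysteine, and its gene lies among the glycine-tyrosine-rich genes of chromosome 16. Krtap28-10 and Krtap28-13, high-sulphur by number, had 42.9% and 42.8% cysteine codons, the highest shares of the 57 members, and also 38.7% and 42% glycine or tyrosine codons. Krtap15, also high-sulphur by number, had 4.0% cysteine codons and 24.0% glycine or tyrosine codons. Classes below follow the number, and the values with Krtap16-3 alone moved are given where the classes are compared.

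**Figure D1:**
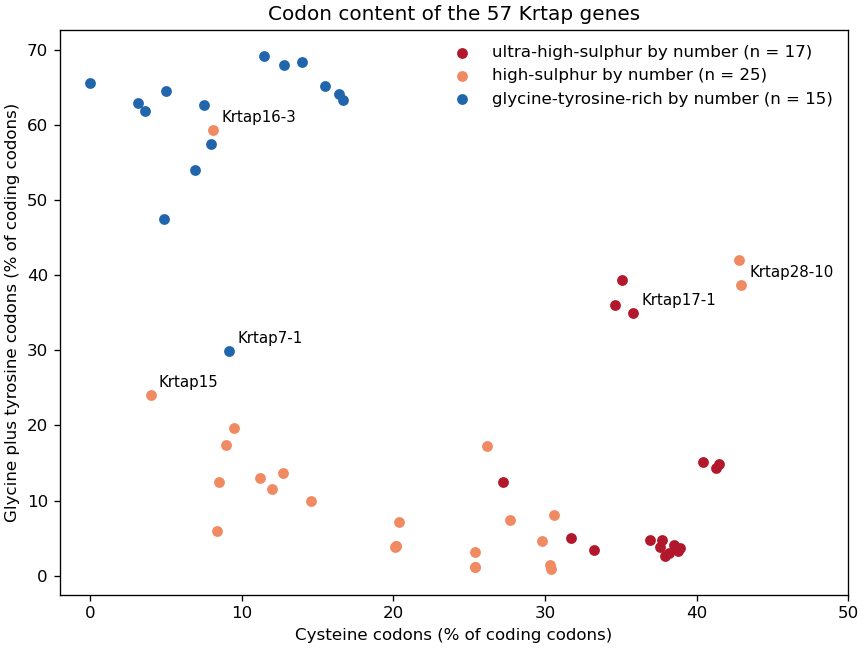
Codon content of the 57 Krtap genes, with the percentage of cysteine codons on the x axis and of glycine plus tyrosine codons on the y axis, 1 point per gene, coloured by the class that its subfamily number gives. The ultra-high-sulphur genes lie between 27.2% and 41.5% cysteine, the glycine-tyrosine-rich genes between 29.9% and 69.2% glycine plus tyrosine, and Krtap16-3 lies among the latter.

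In the build of the deposited table (GRCm39), the members lay in 5 clusters. The cluster on chromosome 11 (99440956 to 99884820) held 23 cysteine-rich genes, that on chromosome 16 (88407593 to 89368071) held all 15 glycine-tyrosine-rich genes and 9 high-sulphur genes, and those on chromosomes 7, 10 and 1 held the 5 Krtap5 genes, 3 genes of Krtap10 and Krtap12 and the 2 Krtap28 genes. Neighbours resemble each other in sequence. Of the 57 members, 24 shared more than 10% of their transcript's 50-base words with the transcript of another gene, up to 81.3% in Krtap4-13, so the reads of these copies may have been lost or divided in the authors' counting and their single-gene values are uncertain. Krtap14 (minus strand) and Krtap15 (plus strand) overlap in position, and their reads cannot be told apart where their exons overlap, since strand-specific counting is not stated.

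The promoters were examined because the members moved together across libraries. RefSeq promoters (GRCm38.p6, 250 bases before to 50 bases after the start) were matched by symbol for 51 of 57 members. The TATA box letters TATAAA stood 20 to 40 bases before the start, on the same strand, in 31 of 51 member promoters (60.8%) and in 2.0% of all 32851 promoters. In the whole 300 bases and on both strands, the LEF1/TCF core (CTTTGA or CTTTGT) was present in 27 of 51 (52.9%) against 31.2% of all promoters. The HOXC13 letters TCGTAAA were present in 1 of 51 (2.0%) against 0.6%. The LEF1/TCF letters were found in 10 of 14 glycine-tyrosine-rich, 14 of 21 high-sulphur and 3 of 16 ultra-high-sulphur promoters. The promoters below, of the most abundant member with the box in each class, are the 100 bases before the start, on the minus strand of GRCm38.p6, with the TATA box in capitals: Krtap9-3 (chr11:99598107-99598206), Krtap11-1 (chr16:89571184-89571283) and Krtap8-1 (chr16:89487953-89488052).
Krtap9-3: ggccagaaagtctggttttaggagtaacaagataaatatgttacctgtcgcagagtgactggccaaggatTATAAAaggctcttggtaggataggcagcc
Krtap11-1: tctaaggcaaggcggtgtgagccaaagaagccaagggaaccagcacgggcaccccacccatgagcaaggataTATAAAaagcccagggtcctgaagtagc
Krtap8-1: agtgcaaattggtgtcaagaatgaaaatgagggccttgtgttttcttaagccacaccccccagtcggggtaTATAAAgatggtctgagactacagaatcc
The box began 30, 28 and 29 bases before the start in these 3 promoters, and a match of letters is not evidence of binding.

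Krtap transcripts varied more between mice of the same group than between the nearest mice of different groups. The 57 genes summed to 569433 counts in vehicle library 1, 394713 in vehicle library 2 and 3984 in vehicle library 3, and to 4551, 4 and 2 counts in rebamipide libraries 1, 2 and 3. This was 1.46%, 0.989% and 0.0103% of all counted reads with vehicle, and 0.0139%, 1.16e-05% and 5.76e-06% with rebamipide. Vehicle library 3 and rebamipide library 1 thus stood beside each other, far below the other vehicle libraries and far above the other rebamipide libraries. After normalisation the sums were 11410, 8015 and 85.2 CPM against 150, 0.156 and 0.0763 CPM. Counts above 3 were reached by 57, 56 and 52 members in the vehicle libraries and by 49, 1 and 0 members in the rebamipide libraries. A gene at 0 could still hold up to 3 counts, or 0.0601 to 0.117 CPM, and this limit covers counting error only. Low counts were mostly even (73.8% to 76.3% of counts from 1 to 20), and if both reads of a pair were counted the limit would be 6 counts.

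**Figure D2:**
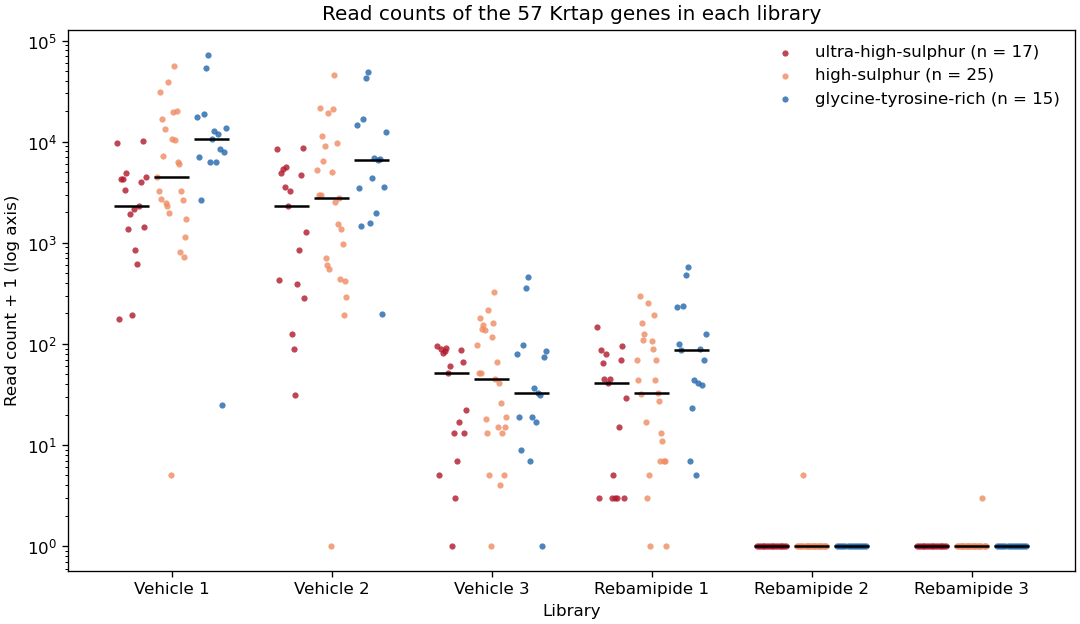
Read counts of the 57 Krtap genes in each of the 6 libraries, on a log axis after adding 1, coloured by class, with a black bar at the median of each class. Members reach 72735 counts in vehicle library 1, at most 462 in vehicle library 3 and at most 570 in rebamipide library 1, and 56 of 57 are at 0 in each of rebamipide libraries 2 and 3.

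The glycine-tyrosine-rich genes were the most abundant per length. Krtap8-1, a glycine-tyrosine-rich gene of the cortex, had the highest mean of all members (904 FPKM, the authors' read counts scaled to gene length and library size). It had 72735, 48819 and 462 counts in the vehicle libraries and 570, 0 and 0 in the rebamipide libraries. Krtap7-1 had 53119, 42205 and 358 counts in the vehicle libraries and 476, 0 and 0 in the rebamipide libraries. For both genes vehicle library 3 lay below rebamipide library 1 in counts, so the groups overlapped. Krtap22-2 had 13775, 12581 and 84 counts against 124, 0 and 0, and Krtap21-1 had 7866, 3538 and 74 counts against 68, 0 and 0. The 6 Krtap19 genes summed to 56203, 28144 and 138 counts in the vehicle libraries and to 203, 0 and 0 in the rebamipide libraries. Krtap19-5, the most abundant of them per length, had 11903, 6601 and 32 counts against 40, 0 and 0.

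Krtap20-2 stood apart from the other members. It had 24, 198 and 0 counts in the vehicle libraries and 38, 0 and 0 in the rebamipide libraries. It was the member with the lowest vehicle 1 to vehicle 2 ratio, 0.120 on the CPM scale, and rebamipide library 1 held more of it than vehicle libraries 1 and 3. EdgeR fitted a log2 fold change of -1.81 with a standard error of 2.13 (adjusted p = 0.546), and it changed sign without vehicle library 2 (0.85). Some other glycine-tyrosine-rich members were relatively high in rebamipide library 1. Krtap6-3 had 2637, 1478 and 8 counts in the vehicle libraries and 86, 0 and 0 in the rebamipide libraries. Its CPM was 16.6 times that of vehicle library 3 in rebamipide library 1. The same ratio was 8.38 for Krtap6-2, 4.52 for Krtap19-9b, 4.50 for Krtap6-1 and 3.77 for Krtap6-5, while the median over the 47 members with more than 3 counts in both libraries was 1.51.

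Among the high-sulphur genes, Krtap15 and Krtap11-1 had the highest levels per length. Krtap15 had 55654, 46091 and 328 counts in the vehicle libraries and 192, 0 and 0 in the rebamipide libraries, and the groups did not overlap in CPM, with 6.32 CPM in rebamipide library 1 against 7.01 CPM in vehicle library 3. Krtap11-1, a gene expressed early in the cortex, had 38993, 19039 and 213 counts against 251, 0 and 0. Krtap1-5 had 31206, 21518 and 180 counts against 297, 0 and 0, and Krtap3-1 had 16717, 11466 and 138 against 161, 0 and 0. Krtap14 had 19745, 20873 and 160 counts against 88, 0 and 0. Krtap16-3 had 20047, 9621 and 65 counts against 69, 0 and 0. In the remaining high-sulphur genes named by rule, Krtap2-4, Krtap13-1, Krtap24-1, Krtap26-1 and Krtap28-10, vehicle library 3 held 14 to 116 counts and rebamipide library 1 held 12 to 106 counts. Krtap31-2 had 1703, 292 and 18 counts in the vehicle libraries and 0 in every rebamipide library. Krtap13 had 4 counts in vehicle library 1 and 0 elsewhere, and no comparison was made.

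The ultra-high-sulphur genes were lower per length and split by subfamily. The 8 Krtap4 genes summed to 29887, 34028 and 553 counts in the vehicle libraries and to 503, 0 and 0 in the rebamipide libraries. Krtap4-1, the most abundant of them, had 9609, 8496 and 94 counts against 145, 0 and 0. Krtap9-3 had 10086, 8684 and 65 counts against 95, 0 and 0. The Krtap4 sums were higher in vehicle library 2 than in vehicle library 1, unlike the sums of the Krtap5 genes, whose proteins are known mainly from the cuticle. The 5 Krtap5 genes had 6131, 1487 and 36 counts in the vehicle libraries and 24, 0 and 0 in the rebamipide libraries. Krtap17-1 had 4496, 1272 and 21 counts against 28, 0 and 0.

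Because vehicle libraries 1 and 2 both held the family at high level, the members could be compared between these 2 mice, with no replicate behind the difference. Over the 56 members with more than 3 counts in both, the CPM ratio of vehicle library 1 to vehicle library 2 ranged from 0.120 to 27.7 with a median of 1.66. It was over 3 in 13 members and below 1 in 12. On the high side were Krtap5-3 (27.7) and Krtap5-2 (23.8), Krtap31-2 (5.75), Krtap9-5 (4.96), Krtap24-1 (4.08), Krtap16-1 (4.04), Krtap19-1 (3.93), Krtap29-1 (3.73), Krtap17-1 (3.49), Krtap19-4 (3.16) and the genes of Krtap10 and Krtap12 (3.40 to 3.79), most of them named after their values were seen. The other Krtap5 genes were lower, at 2.69 for Krtap5-5, 1.56 for Krtap5-4 and 1.52 for Krtap5-1, so the subfamily was not uniformly high. On the low side, besides Krtap20-2, were 7 of the 8 Krtap4 genes, with Krtap4-13 lowest (0.412), Krtap9-1 (0.834), Krtap1-3 (0.841), Krtap2-4 (0.889) and Krtap14 (0.933). Members of 1 subfamily did not always go together, as Krtap9-1 (0.834), Krtap9-3 (1.15) and Krtap9-5 (4.96) show.

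The keratins that KAPs bind also spread between these 2 mice. The 7 type I hair keratins had ratios from 1.35 (Krt34) to 4.32 (Krt32), and the 6 type II hair keratins from 0.785 (Krt84) to 5.61 (Krt82). The inner root sheath, which moulds the growing shaft, and the companion layer were represented by 9 genes, with ratios from 0.865 (Krt72) to 2.60 (Krt73). The melanocyte list (5 genes) had a ratio of 4.06, and the interfollicular epidermis list a ratio of 0.363. The part of these other differences between the 2 mice in the Krtap ratios was not tested.

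**Figure D3:**
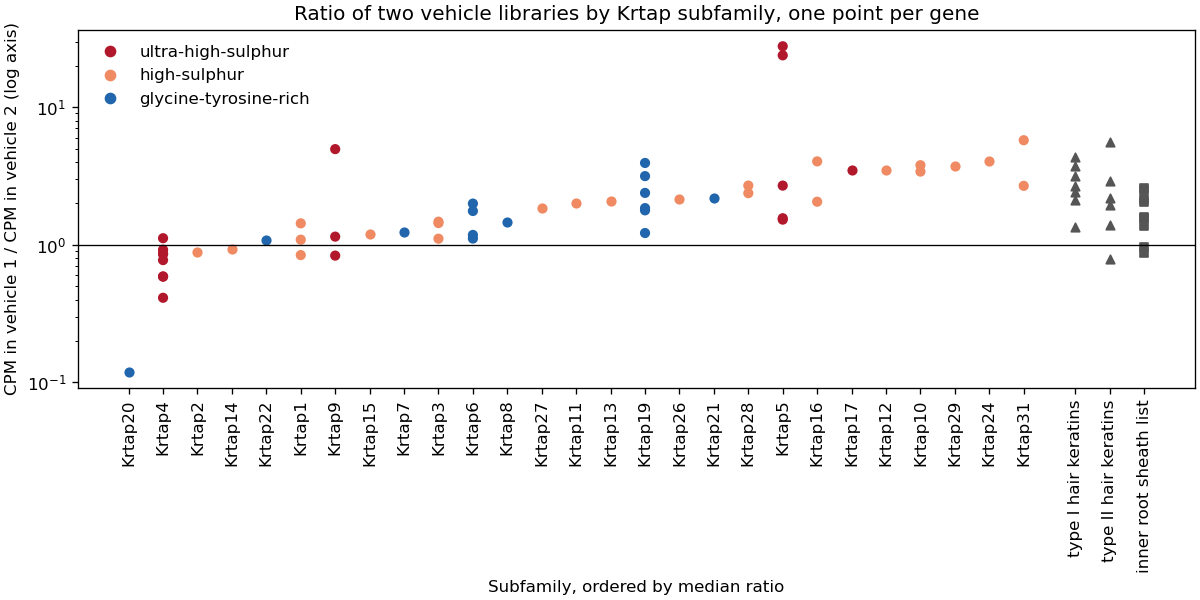
Ratio of normalised CPM in vehicle library 1 to vehicle library 2 on a log axis, with 1 point per gene, for each Krtap subfamily ordered by its median and, in grey, for the hair keratins and the inner root sheath list. Krtap20-2 lies at 0.120 and Krtap4-13 at 0.412, while Krtap5-2 and Krtap5-3 lie above 20.

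Vehicle library 3 was low in nearly every member. It was the lowest vehicle library in 56 of 57 members. Of the 48 members tested, 47 were more than 10-fold higher in vehicle library 1 than in vehicle library 3, as were 1.85% of all 14875 genes tested. The median ratio was 140 over the 52 members with more than 3 counts in both, 113 over the cysteine-rich and 285 over the glycine-tyrosine-rich members, and 112 and 289 with Krtap16-3 moved. Its interfollicular epidermis list was not low (8995 CPM), and Krt5 and Krt14 together had 116142 counts, so per 100 counts of these 2 keratins the library held 3.43 Krtap counts. The same quotient was 744 in vehicle library 1, 278 in vehicle library 2, 18.8 in rebamipide library 1 and 0.0349 in rebamipide library 2. Set against epidermal keratins, rebamipide library 1 therefore lay above vehicle library 3. Its Krtap counts were 4551 against 3984, while its Krt5 and Krt14 counts were 24150 against 116142. Most of the difference in the quotient thus came from the epidermal counts. Rebamipide library 3 had too few epidermal counts for the quotient.

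The makeup of the Krtap pool was measured by FPKM, which takes gene length into account. Glycine-tyrosine-rich members made up 56.3%, 55.8% and 44.4% of the Krtap FPKM in vehicle libraries 1, 2 and 3 and 58.3% in rebamipide library 1, and 60.5%, 58.6%, 46.4% and 60.1% with Krtap16-3 moved. The lowest share belonged to vehicle library 3, and rebamipide library 1 was close to the other vehicle libraries. Krtap19 fell from 14.5% and 10.3% of the pool in vehicle libraries 1 and 2 to 5.51% and 6.40% in vehicle library 3 and rebamipide library 1. The share of Krtap6 was 9.29%, 10.7%, 6.29% and 16.6% in the same 4 libraries. Krtap8-1 kept between 15.2% and 15.7% of the pool in all 4. Across the 47 members with more than 3 counts in all 4 libraries, the log2 ratio of vehicle 1 to vehicle 2 and that of rebamipide 1 to vehicle 3 were barely related (Pearson's r = -0.10, Spearman's rho = 0.12, given as a description over genes that share libraries).

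The comparison of the groups asked whether rebamipide changed these genes at day 7. Of the 57 members, 48 passed edgeR's expression filter, 13 ultra-high-sulphur, 21 high-sulphur and 14 glycine-tyrosine-rich, and the 9 left out had at most 6 counts in vehicle library 3 and in each rebamipide library. All 48 had a negative fitted log2 fold change, as did 56.9% of all genes tested. The median was -6.87, against -0.175 over all genes. It was -6.80 with the members at or under 3 counts in every rebamipide library set at 3 counts there. The test gives no standard error, so it was taken as the absolute log2 fold change divided by the square root of the F statistic. These standard errors were 1.95 to 3.04. By edgeR's quasi-likelihood test with Benjamini-Hochberg adjustment, 5 of 48 were lower at an adjusted p under 0.05, against 6.51% of all genes, and 0 were higher, against 14.1% of all genes. At an unadjusted p under 0.05, 40 of the 48 were lower by edgeR, against 18.8% of all genes, and 0 were higher, the 40 being 33 of 34 cysteine-rich and 7 of 14 glycine-tyrosine-rich members, a difference between classes that was not tested. With the thresholds of the study (unadjusted p under 0.05 and a log2 fold change under -1), edgeR called 40 of 48 lower, where 14.5% of all genes were called. The study used DESeq2, which called 46 of 48 members lower at an unadjusted p under 0.05. With both thresholds DESeq2 called 18.2% of all genes lower. DESeq2 called 26 of 48 lower at an adjusted p under 0.05 (17% of all genes) and limma-voom called 0 (6.94% of all genes), with 0 also at an unadjusted p under 0.05 (19.3% of all genes).

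Most members overlapped between the groups, about as often as all genes tested. All 3 rebamipide libraries lay under the lowest vehicle library in 11 of the 48 members tested, where 24.0% of all genes tested had no overlap in this direction. Rebamipide library 1 was above vehicle library 3 in CPM in 43 of the 57 members, among them 14 of the 15 glycine-tyrosine-rich genes. This count depends on the normalisation, with TMM factors of 0.929 in rebamipide library 1 and 1.21 in vehicle library 3. It includes members near the counting limit, such as Krtap5-3 with 2 counts in both libraries. The share over all genes was not computed. Rebamipide library 1 held nearly all Krtap reads of its group, and without it the median log2 fold change by edgeR went from -6.87 to -14.14, while without rebamipide library 2 or 3 it was -6.33 or -6.32. Without rebamipide library 3, which lacked epidermal keratins, edgeR called 0 of 56 members lower, against 2.49% of all genes (44 at an unadjusted p under 0.05, against 14.6% of all genes, smallest adjusted p = 0.0841), and DESeq2 called 26, against 12.2% of all genes.

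The 5 members called lower by edgeR were Krtap10-4, Krtap19-4, Krtap9-5, Krtap31-1 and Krtap28-10, of which 4 are cysteine-rich. All but Krtap28-10 held at most 6 counts in any rebamipide library. They passed the expression filter only through the vehicle libraries, where they were high. Krtap10-4 had 2319, 604 and 12 counts in the vehicle libraries and 2, 0 and 0 in the rebamipide libraries. Its vehicle mean was 19.7 ± 24.0 CPM (SD, n = 3), and it was at or under 3 counts in every rebamipide library (adjusted p = 0.0348, edgeR). With 3 counts set in each rebamipide library, the vehicle mean was 179-fold higher. Krtap9-5 had 1432, 285 and 12 counts against 2, 0 and 0 (adjusted p = 0.0373, edgeR), and set the same way its vehicle mean was 105-fold higher. The limit of 3 counts was stated for a gene at 0. Both genes held 2 counts in rebamipide library 1, so these values are not strict bounds. Both values rest mainly on vehicle library 1, and without it they were 56.9-fold and 27.5-fold. With a limit of 6 counts they would be 89.3-fold and 52.6-fold. Krtap19-4, which is glycine-tyrosine-rich, had 6307, 1972 and 16 counts against 4, 0 and 0, and edgeR fitted -10.09 on the log2 scale with a standard error of 2.44 (adjusted p = 0.0362). Krtap31-1 had 1128, 415 and 14 counts against 6, 0 and 0 (log2 fold change -7.15, adjusted p = 0.0484), and Krtap28-10 had 3262, 1357 and 25 counts against 12, 0 and 0 (log2 fold change -7.78, adjusted p = 0.0493). In each of the 5, rebamipide library 1 was below vehicle library 3. Krtap31-1 shares 39.5% of its 50-base words with another transcript, Krtap31-2 above all, and Krtap10-4 shares 42%, so these 2 calls concern copies that counting may not separate. None of the 5 was called without vehicle library 1, without vehicle library 2 or without any 1 of the rebamipide libraries by edgeR (adjusted p of all members at least 0.0720, 0.102, 0.135 and 0.0841 without vehicle libraries 1 and 2 and rebamipide libraries 2 and 3). Without vehicle library 2 edgeR called 0 of all 14964 genes in either direction, and without rebamipide library 2 it called 0 of 15335 lower, so those losses were not particular to these members. DESeq2 called 3 to 5 of the 5 whichever library was left out, edgeR with no filter called 3, and limma-voom and limma on log2(FPKM + 1) called 0 of the 5.

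The most abundant members did not pass. Krtap8-1 averaged 819 ± 739 CPM with vehicle and 6.26 ± 10.8 CPM with rebamipide (SD, n = 3), and edgeR fitted -7.03 on the log2 scale with a standard error of 3.04 (adjusted p = 0.139). Krtap7-1 went from 643 ± 560 to 5.23 ± 9.05 CPM (adjusted p = 0.136, edgeR) and Krtap15 from 686 ± 595 to 2.11 ± 3.65 CPM (adjusted p = 0.0891, edgeR). In each, the SD of the vehicle group was close to its mean. Besides Krtap20-2, the members with the smallest fitted changes were Krtap6-3 (-4.85), Krtap4-8 (-5.78), Krtap4-16 (-6.01) and Krtap6-2 (-6.03). The 34 cysteine-rich members tested had a median log2 fold change of -6.87 and the 14 glycine-tyrosine-rich members -6.82 (-6.84 and -6.94 with Krtap16-3 moved), and the difference between the classes was not tested.

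**Figure D4:**
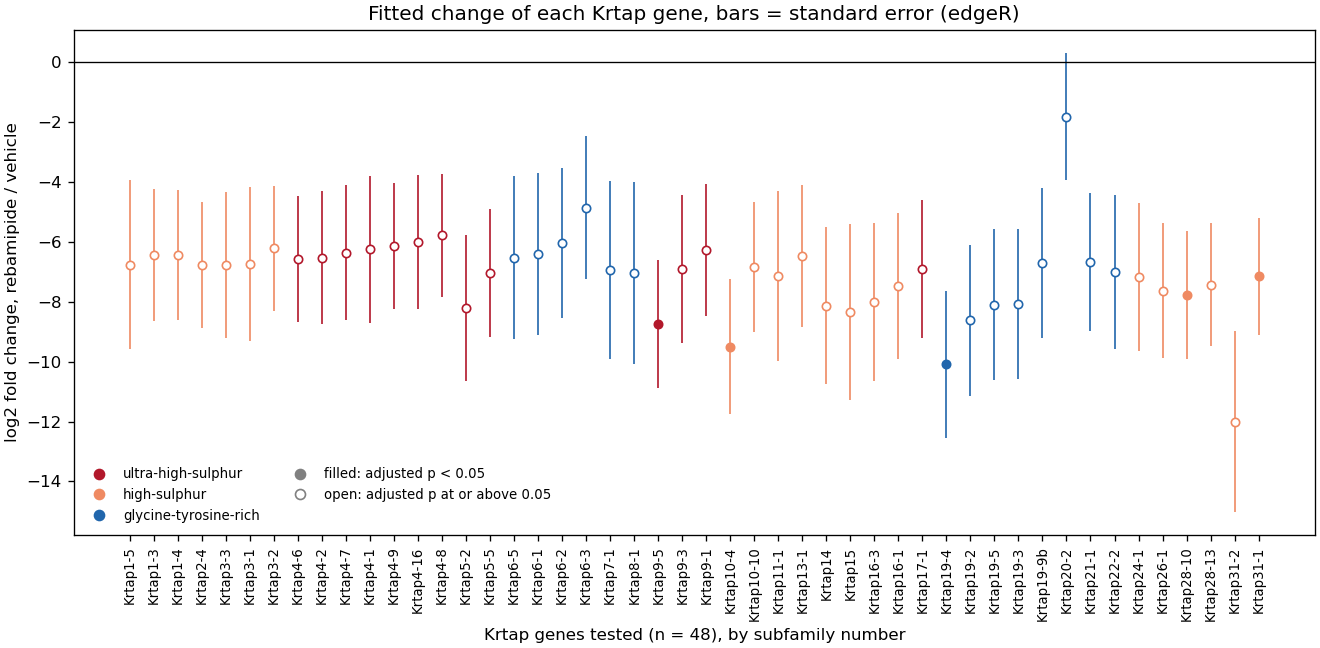
Log2 fold change of rebamipide over vehicle for the 48 Krtap genes tested with edgeR, ordered by subfamily number and coloured by class. Bars are standard errors, taken as the absolute log2 fold change divided by the square root of the F statistic. Filled points have an adjusted p under 0.05. All points lie below 0 and 5 are filled. Krtap31-2, Krtap10-4 and Krtap9-5 were at or under 3 counts in every rebamipide library. Their points and bars depend on the prior count of the fit and are not measured sizes. Krtap31-2 was at least 122-fold lower than its vehicle mean, 61.2-fold with a limit of 6 counts and 28.7-fold without vehicle library 1.

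Genes that act with the KAPs were read in the same fit. For every list below, the share of all genes called lower at an adjusted p under 0.05 was 6.51% by edgeR, 17% by DESeq2 and 6.94% by limma-voom. It was 12.8% by edgeR without rebamipide library 1. With the thresholds of the study, applied here to the edgeR fit, it was 14.5%. Of the cysteine-rich hair keratins, 7 type I and 6 type II genes were tested and 0 passed in either direction at an adjusted p under 0.05 by edgeR, also without rebamipide library 3, with medians of -6.72 and -6.80. With the thresholds of the study, 3 type I and 3 type II genes were lower by edgeR, and at an adjusted p under 0.05 DESeq2 called 1 and 3 and limma-voom 0. Without rebamipide library 1 edgeR called 1 and 1, and DESeq2 called all 7 and 6, against 27.3% of all genes. Krt33a, the type I hair keratin with the highest mean FPKM, had 57616, 27040 and 360 counts in the vehicle libraries and 395, 0 and 0 in the rebamipide libraries (adjusted p = 0.130, edgeR). Krt83, the highest type II gene, had 54885, 24886 and 255 counts against 360, 0 and 0. Of the 13 hair keratins, Krt84 was higher in vehicle library 2 than in vehicle library 1 (20.7 against 16.3 CPM), and Krt36 was at 0.791 CPM in vehicle library 3 and at 0.702 and 0.840 CPM in rebamipide libraries 2 and 3. Krtap counts per 100 hair keratin counts were 141, 223.5 and 166.5 in the vehicle libraries and 116.5 in rebamipide library 1, a far narrower range than that of the sums themselves.

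The inner root sheath and companion layer list (9 genes tested) passed in 0 genes by edgeR (2 with the thresholds of the study, 1 by DESeq2 and 0 by limma-voom at an adjusted p under 0.05), with a median of -4.79. Without rebamipide library 1, which held nearly all reads of this list in its group, edgeR called 8 of 9 lower and DESeq2 9. Krt71, a keratin of the inner root sheath, had 329678, 150336 and 3332 counts in the vehicle libraries and 11284, 0 and 0 in the rebamipide libraries. Per 100 counts of this list the Krtap counts were 45.2, 54.7 and 28.9 in the vehicle libraries and 12.96 in rebamipide library 1, the lowest of these 4 libraries, and the other rebamipide libraries held at most 38 counts of the list. Of the shaft cross-linking and cortex list, 2 of 11 were lower by edgeR, 7 by DESeq2, 2 by limma-voom, 8 with the thresholds of the study and 3 by edgeR without rebamipide library 1. The 2 were Dsc2, a desmosomal cadherin (log2 fold change -3.82, adjusted p = 0.0378, edgeR), and Hephl1, a copper-dependent oxidase (-4.49, adjusted p = 0.0395, edgeR). Without rebamipide library 3 both passed (adjusted p = 0.0323 and 0.0383, edgeR), and neither passed without vehicle library 1, vehicle library 2 or rebamipide library 2. Dsc2 also did not pass without vehicle library 3 (adjusted p = 0.0512, edgeR), nor Hephl1 without rebamipide library 1 (adjusted p = 0.0575, edgeR). Of the hair matrix regulators, 2 of 14 were lower by edgeR, 6 by DESeq2, 2 by limma-voom, 5 with the thresholds of the study and 5 by edgeR without rebamipide library 1. The 2 were the signals Bmp2 (-1.81, adjusted p = 0.0243) and Bmp4 (-2.33, adjusted p = 0.0448, edgeR). Neither passed without rebamipide library 3 (adjusted p = 0.0642 for Bmp2 and 0.103 for Bmp4, edgeR), nor without rebamipide library 2, vehicle library 1 or vehicle library 2, and Bmp4 did not pass by limma-voom (adjusted p = 0.0621) or with no filter (adjusted p = 0.0511). Hoxc13, the homeobox factor that drives hair keratin and Krtap genes, had 8728, 2959 and 169 counts against 346, 6 and 0 (adjusted p = 0.184, edgeR), and was named after its values were seen. Of the bulge and hair germ list, which marks resting follicles too, 1 of 8 was lower by edgeR, 3 by DESeq2, 2 by limma-voom, 3 with the thresholds of the study and 3 by edgeR without rebamipide library 1. The gene was Postn (-1.83, adjusted p = 0.0101, and 0.0342 without rebamipide library 3, edgeR), which did not pass without rebamipide library 2 or vehicle library 2.

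Summed over the list, bulge and hair germ genes were at 899, 1127 and 983 CPM with vehicle and at 548, 276 and 185 CPM with rebamipide. The sum covers members that went different ways in vehicle library 3. Lgr5, a marker of follicle stem cells, was at 49.4, 25.1 and 9.15 CPM in the vehicle libraries, whereas Cd34 was at 137, 258 and 358 CPM, both named after their values were seen. The proliferation list (6 genes) was at 475, 228 and 120 CPM against 82.3, 22.4 and 3.32 CPM. The melanocyte list, of cells that pigment the shaft, was at 1009, 248.7 and 32.0 CPM against 122.5, 6.74 and 0.687 CPM, with rebamipide library 1 above vehicle library 3 as for the Krtap sum.

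**Figure D5:**
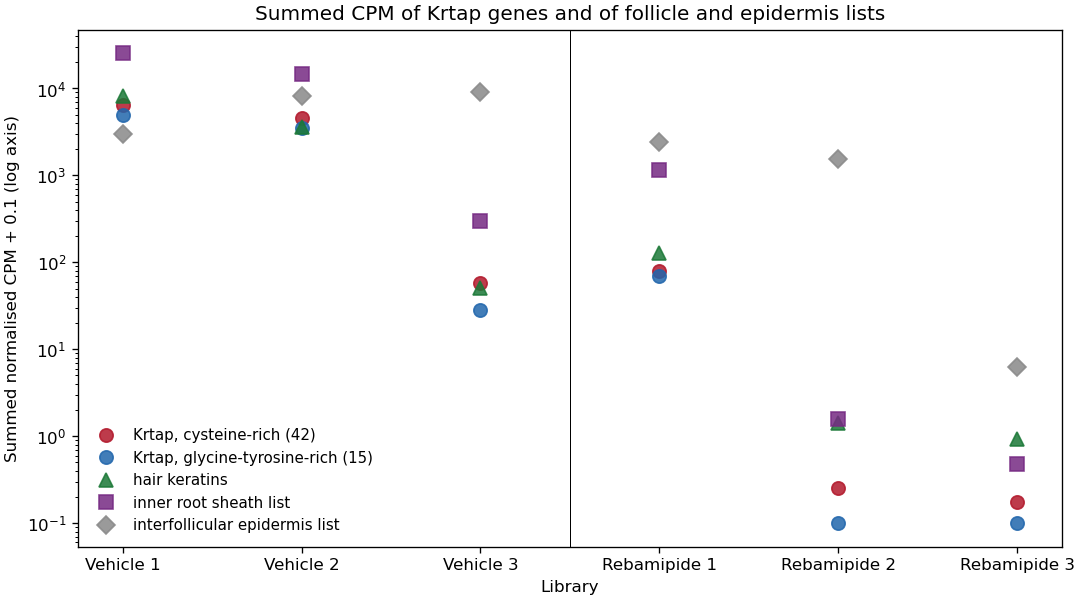
Summed normalised CPM (plus 0.1, log axis) in each library for the 2 Krtap classes, 13 hair keratins, the inner root sheath list and the interfollicular epidermis list; a vertical line separates the vehicle from the rebamipide libraries. The Krtap classes, the hair keratins and the inner root sheath list are all lower in vehicle library 3 than in vehicle libraries 1 and 2, while the epidermis list is not, and the epidermis list is at 6.18 CPM in rebamipide library 3.

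The genes whose pattern over the 6 libraries was most like the summed Krtap level were searched among 9787 other genes with a mean of at least 10 CPM, by Pearson's r of log2(CPM + 1). The 10 highest were Prr9 (r = 0.998), Tchh (0.998), Krt27 (0.997), Krt75 (0.995), Cdc42ep3 (0.994), Rab15 (0.993), Wipi1 (0.990), Pinlyp (0.990), Krt71 (0.989) and Krt25 (0.989). Tchh, the trichohyalin of the inner root sheath and medulla, had 416919, 298917 and 4854 counts in the vehicle libraries and 7565, 13 and 6 in the rebamipide libraries. Prr9 had 91513, 76661 and 1343 counts against 1755, 16 and 0. Krt25, Krt27, Krt71 and Krt75 are keratins of the inner root sheath and companion layer. Wipi1 followed the same order over a far smaller range, with 65.2, 64.7 and 46.4 CPM against 46.7, 33.5 and 29.0 CPM. Cdc42ep3, with 24.5, 26.7 and 16.25 CPM against 17.78, 10.76 and 10.95 CPM, did not keep the order of vehicle libraries 1 and 2 or of rebamipide libraries 2 and 3. With 6 libraries many genes reach a high r, and the values are given as a description.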

How the data were processed

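Dorsal skin of 6 mice, 3 per group, was sequenced, and groups were taken from the labels. The deposited table held read counts per gene (raw, made with HTSeq 0.9.1 after fastp 0.22.0 and HISAT2 2.1.0 on GRCm39, per the submitters' processing notes) and FPKM computed by the authors. Counting settings are not given in the sources used here. Counts of 1 to 20 were even in 73.8% to 76.3% of genes. The libraries held 32709801 to 39915276 counts.

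All genes were fitted with edgeR 4.0.16 (R 4.3.3) in a quasi-likelihood test with TMM normalisation and filterByExpr, which left 14875 genes, and p-values were adjusted by Benjamini-Hochberg over all of them. CPM used TMM library sizes. Standard errors of the edgeR fit were taken as the absolute log2 fold change divided by the square root of the F statistic. The study's methods name DESeq2, which was an alternative (1.42.0), as were limma-voom and limma on log2(FPKM + 1) (3.58.1), other normalisations, filters and thresholds, a replicate block and leaving out each library. Scripts were tested on simulated data. Codons were counted in GENCODE M21 transcripts.

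The members and lists were chosen with earlier results of these data known. Named members were, by rule, the one with the highest mean FPKM in each subfamily, the 5 with the smallest p-values, the 5 with the smallest absolute log2 fold change, any with a positive log2 fold change and the 5 with the highest mean CPM in the rebamipide group. Of each list, the gene with the highest mean FPKM and up to 3 with the smallest p-values could be named. Classes follow subfamily numbers as generally known.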

Additional observations from a re-analysis of the deposited data

How the results depend on the processing

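The number of Krtap genes called lower depended on the tool and on single libraries. Each count is given with the share of all genes called lower at that setting. Against 5 of 48 by edgeR (6.51%), the count was 26 by DESeq2 (17%), 0 by limma-voom (6.94%), 11 with total counts alone (25.2%), 14 by limma on log2(FPKM + 1) (32.3%) and 21 with the replicate block (5.75%). By edgeR with the thresholds of the study it was 40 (14.5%). With total counts alone and by limma on log2(FPKM + 1) the share of members was no higher than that of all genes. It was 6 with RLE factors (7%) and 4 of 57 with no filter (4.5%), and with at least 10 counts in every library no member could be tested. Leaving out 1 library gave 0 to 23 by edgeR (23 without vehicle library 3, 5.51% of all genes; 2 without rebamipide library 1, 12.8%; and 0 without any other, 0% to 2.52%) and 6 to 56 by DESeq2, with 9.48% to 27.3% of all genes (30 without vehicle library 3, 29 and 26 without rebamipide libraries 2 and 3). The median log2 fold change stayed negative throughout. Without rebamipide library 1, where the other rebamipide libraries are at about 0, it was -14.14 by edgeR and -12.94 by DESeq2 (cysteine-rich -13.58 and -12.38, glycine-tyrosine-rich -14.98 and -13.78), and it was -6.03 to -7.53 without any other library (from -6.02 for cysteine-rich and -6.18 for glycine-tyrosine-rich members by edgeR). Krtap20-2 changed sign without vehicle library 2 (0.85 by edgeR and 0.79 by DESeq2, against -8.89 by edgeR without rebamipide library 1), and the cause was not tested. The replicate numbers did not pair the mice: deviations of same-numbered libraries correlated at -0.093, -0.024 and -0.055, so the block is given only here. Depth limits the fold changes of 3 of the 48 members tested to values set at 3 counts in each rebamipide library. These are bounds only for Krtap31-2, which was at 0 in each rebamipide library. The values with a limit of 6 counts or without a vehicle library were added after seeing the data.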
